A study of Mus musculus with 6 samples.

Results

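Adgrg1 (GPR56) and 8 of its relatives among the adhesion G protein-coupled receptors were followed in haematopoietic stem cells (HSCs) that do or do not carry the surface receptor CD93. The 9 genes, among them Adgrg1, Adgrg3, Adgre1, Adgre5, Adgrl1, Adgrl2, Adgrl4 and Adgra3, were found by symbol among the 47937 genes of the table, and the other 21 genes of the family were used for comparison. The family was chosen because Adgrg1 was evenly read and had less signal in CD93pos, so its values for this contrast are a description, and calls from the fits across all genes support nothing about these genes. By their labels, CD93pos HSCs were wild-type C57BL/6 bone marrow cells of 8-week-old male mice, lineage-depleted, positive for Kit, Sca-1, Slam1 and CD93 and negative for CD34, CD48 and Flt3 (3 libraries). CD93neg HSCs are labelled as sorted through the same gate from the same kind of mice, but CD93 negative (3 libraries). Marrow was pooled from femora and tibiae, and the labels state biological replicates without naming the animal behind each library, so spreads are those between libraries.

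Adhesion receptors carry a long extracellular region that many members cleave from the seven-helix part at an autoproteolysis site, and a short stretch freed by the cleavage can then act as a tethered agonist. Adgrg1 binds collagen III and transglutaminase 2 and signals through G12 and G13 to the GTPase RhoA. In mouse bone marrow it is known as a gene strongly expressed by HSCs, and its product is used to enrich them.

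The libraries were uneven. Reads assigned to genes numbered 5794528 to 9509304 in CD93pos and 2832653 to 4614396 in CD93neg. Of the 11805 genes with a mean of at least 10 normalized counts (reads divided by a size factor per library), 2.10% to 13.5% had no read in a CD93pos library, against 71.0%, 26.4% and 15.99% in CD93neg replicates 1, 2 and 3. Among markers of other cells, those of neutrophils summed to 315, 90.3 and 111 reads per 1000000 assigned reads (CPM) in CD93pos and to 0, 12796 and 9066 in CD93neg. Those of the B lineage summed to 73.7, 100.4 and 99.8 CPM in CD93pos and 0.353, 11111 and 34016 in CD93neg. The immunoglobulin constant genes Igkc and Ighm held most of this, with 6255 and 4492 CPM in CD93neg replicate 2 and 14306 and 19276 in replicate 3. Vpreb1 of the same list was read in CD93pos alone, with 7, 47 and 16 reads. Markers of mast cells and basophils had the higher sums in CD93pos, with 94.7, 1057 and 696 CPM, against 0, 27.5 and 0 in CD93neg. Erythroid marker sums were 373, 313 and 630 CPM in CD93pos and 228, 15.0 and 82.6 in CD93neg. Car1 alone gave 189, 190 and 404 CPM in CD93pos and 228, 0.217 and 0 in CD93neg. The globin genes Hba-a1, Hbb-bt and Hbb-bs each stayed under 10 CPM in every library. Male mice are stated, and 4 Y-linked genes together had 2196, 1100 and 1332 reads in CD93pos, against 1, 0 and 0 in CD93neg, while Xist had 0, 0 and 12 in CD93pos, against 0, 2419 and 1143 in CD93neg. CD93neg replicates 2 and 3 thus went against the stated sex, and replicate 1, with 1 such read in all, showed neither sex. These libraries may not be what their labels say, and what goes with this split cannot be told apart from CD93. Cd93 itself had normalized counts of 414, 793 and 338 in CD93pos and 0, 399 and 59.4 in CD93neg, so 1 CD93neg library lay above 1 CD93pos library. Of the genes selected for, Kit was read in all 6 libraries, and Slamf1 and Ly6a in all but CD93neg replicate 1, while transcripts of the genes selected against, Cd34, Cd48 and Flt3, were read in both groups. In bulk RNA, fewer cells that express a gene and less RNA per cell cannot be told apart.

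Adgrg1 was among the most abundant transcripts of these cells in every library. Its normalized counts were 8807, 8896 and 6916 in CD93pos, against 12397, 13971 and 11538 in CD93neg. The 3 CD93pos values all lay below the 3 CD93neg values. By normalized count the gene ranked 16, 17 and 30 among all genes in CD93pos and 19, 12 and 23 in CD93neg. The ratio of the group means, CD93pos over CD93neg, was 0.649. In limma the log2 fold change was -0.63 (SE 0.12, n = 3 each) on the scale of log2(normalized count + 1). The authors' deposited log2 fold change for Adgrg1 was -0.62 with an SE of 1.502. How precisely the difference was estimated thus depended on the fit. Groups without overlap and with CD93pos lower made up 1.92% of the 11805 tested genes, and 9.24% of the 812 genes that were read in every library with a mean of at least 1000 normalized counts. The gene was picked for this pattern, so nothing is read from its standing among them.

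Adgrg1 was chosen partly for its evenness, so the spread is given as a description only. Its coefficient of variation was 13.6% in CD93pos and 9.77% in CD93neg, while the medians over the 1031 genes whose mean reached 1000 normalized counts were 20.3% in CD93pos and 86.8% in CD93neg. For 15 of these genes, Adgrg1 included, the larger of the group coefficients was no higher than that of Adgrg1. It was also 1 of 812 of the 1031 that were read in every library. CD93neg replicate 1, in which 71.0% of tested genes were unread, still held 6829 reads of Adgrg1.

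The size of the Adgrg1 difference depended on how libraries were scaled. As CPM the gene had 2026, 1938 and 1571 in CD93pos and 2411, 3182 and 2458 in CD93neg, still without overlap, with a ratio of means of 0.687. Genes read in every library took 49.9%, 51.0% and 50.8% of the reads in CD93pos, against 84.7%, 49.8% and 47.8% in CD93neg. Per 1000000 reads of those 2918 genes alone, Adgrg1 had 4063, 3799 and 3095 in CD93pos and 2847, 6384 and 5142 in CD93neg. On that scale, chosen after the data were seen, the groups overlapped, because CD93neg replicate 1 lay below all CD93pos libraries, and the log2 fold change was -0.32. After quantile normalization the groups overlapped too and the log2 fold change was -0.14. The median log2 fold change over all tested genes was 2.36 and moved to 1.68, 2.02 and 0.02 on these scales in turn. Among the 2707 tested genes read in every library, the difference of Adgrg1 from their median was -0.76 on the deposited scale and 0.25 after quantile normalization, so its side of that median turned with the scaling. After quantile normalization its difference was -0.17 from the median of all tested genes. From that of the 812 genes read in every library with a mean of at least 1000 normalized counts it was -0.39. Without CD93neg replicate 1 the fold change of Adgrg1 was -0.64. Without CD93neg replicates 2 and 3, which held the high neutrophil and B lineage sums, it was -0.60, a setting also chosen after the data were seen.

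**Figure D1:**
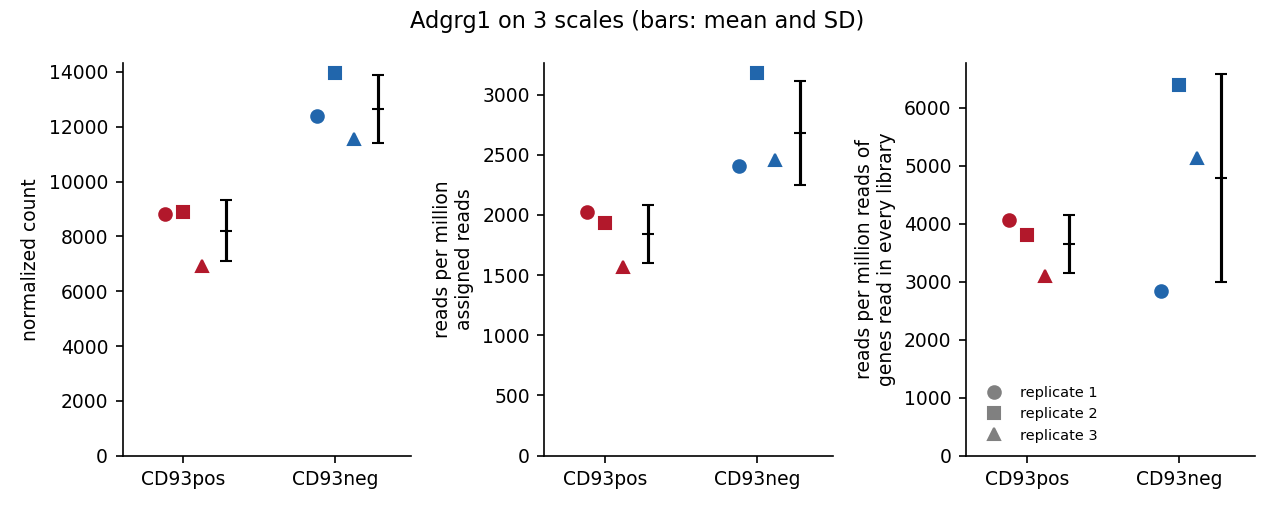
Adgrg1 in each library on 3 scales, as normalized count, as reads per 1000000 assigned reads and as reads per 1000000 reads of the genes read in every library (y axes, from 0), with CD93pos left of CD93neg, symbols for replicates, and the mean and SD of each group as bars. On the first 2 scales the CD93pos points lie below the CD93neg points; on the third, CD93neg replicate 1 is the lowest point, at 2847.

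Adgrg1 held most reads of the family, and Adgrl4 most of the rest in 4 of the 6 libraries. Of the reads of all 30 family genes, Adgrg1 took 72.5% (95% Wilson interval 72.0% to 73.0%), 70.0% (69.3% to 70.7%) and 78.9% (78.2% to 79.5%) in CD93pos. In CD93neg it took 53.3% (52.4% to 54.1%), 79.6% (79.0% to 80.2%) and 84.7% (83.9% to 85.4%). These intervals cover counting error only, since reads of amplified libraries are not independent molecules. Averaged, the share was 73.8% ± 4.57 in CD93pos, against 72.5% ± 16.9 in CD93neg (SD, n = 3 each), a difference smaller than the spread. The low share of CD93neg replicate 1 stood beside an Adgrl4 share of 46.7%, against 18.01%, 24.3% and 4.41% in CD93pos and 13.8% and 4.55% in the other CD93neg libraries. Summed over the 9 genes the reads came to 2761, 2738 and 1925 CPM in CD93pos and 4525, 3900 and 2801 in CD93neg, a ratio of means of 0.661. CD93neg had the 3 highest sums, the lowest of them close to the highest CD93pos sum. Without Adgrg1 the other 8 genes summed to 735, 800.1 and 353.99 CPM in CD93pos and 2114, 717 and 343 in CD93neg, and the groups overlapped.

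**Figure D2:**
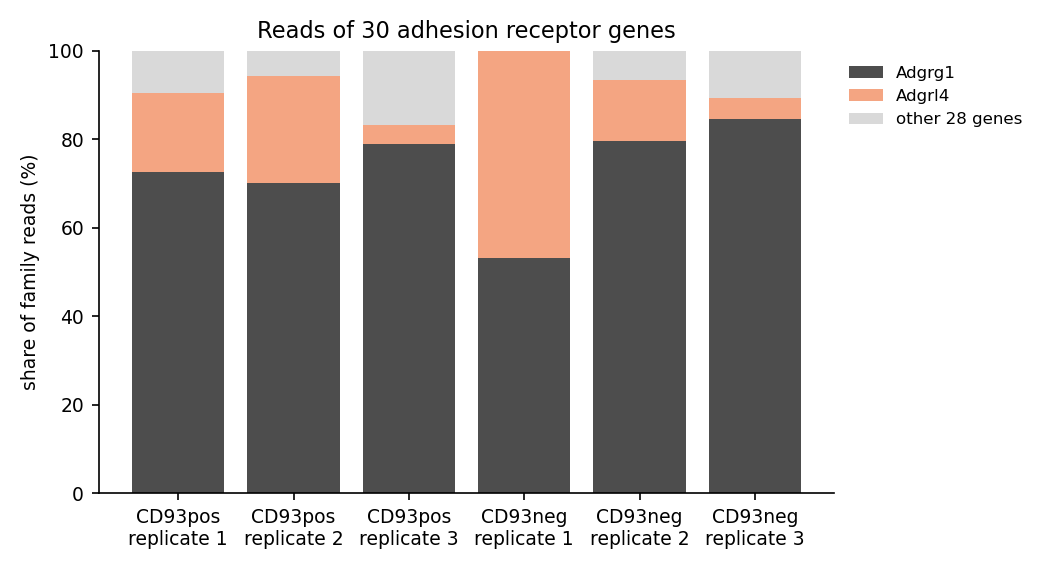
Share of the reads of the 30 adhesion receptor genes (y axis, percent) taken by Adgrg1, Adgrl4 and the other 28 genes in each library (x axis, CD93pos left of CD93neg). Adgrg1 has the largest share in all 6 libraries, from 53.3% to 84.7%, and Adgrl4 reaches 46.7% in CD93neg replicate 1.

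Compared per length, as reads per kilobase of annotated exon per 1000000 assigned reads (RPKM), the genes fell into the same order in both groups at the top. In CD93pos, Adgrg1 had 340 ± 44.5 RPKM and Adgrl4 91.9 ± 65.6 (SD, n = 3), and Adgrg1 was above Adgrl4 in each library. Adgrg3 had 12.8 ± 7.62 RPKM and Adgre5 11.9 ± 2.82, a pair that did not differ beyond its spread. Adgrl1, Adgra3 and Adgrl2, with 2.62 ± 0.542, 2.34 ± 2.503 and 2.08 ± 0.673 RPKM, did not differ beyond their spread either. Adgre1 had 1.19 ± 1.31 RPKM. In CD93neg, Adgrg1 had 495 ± 79.8 RPKM and Adgrl4 204 ± 228, and in CD93neg replicate 1 Adgrl4 was above Adgrg1, at 461 against 445 RPKM. Adgrg3 followed with 10.3 ± 9.40 RPKM, then Adgrl1 with 3.46 ± 3.47, Adgre5 with 2.75 ± 2.59, Adgra3 with 1.66 ± 2.87 and Adgrl2 with 0.0552 ± 0.0751 RPKM, and none of these neighbours differed beyond its spread. Adgre1 had no read in CD93neg.

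**Figure D3:**
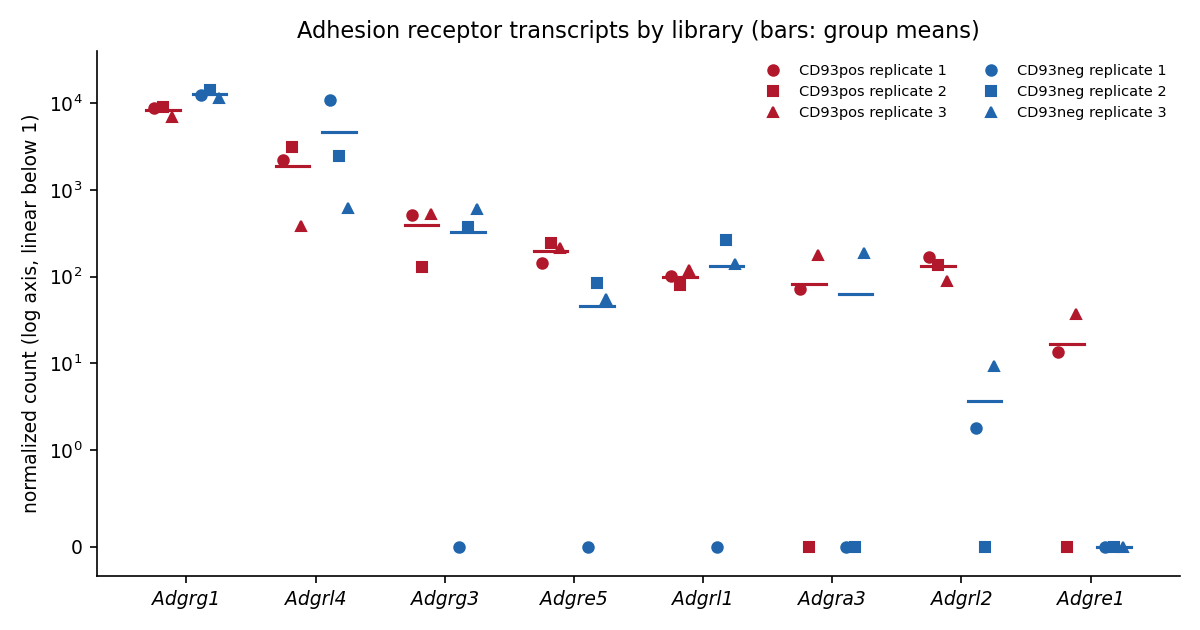
Normalized counts (y axis, log scale, linear below 1) of 8 adhesion receptor genes (x axis) in each library, CD93pos left of CD93neg for each gene, with symbols for replicates and short bars for group means. Adgrg1 and Adgrl4 alone have points above 0 in all 6 libraries; CD93neg replicate 1 is at 0 for all of the others except Adgrl2, where it has 1 read.

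Of the 9 genes, 9, 6 and 9 were read in the CD93pos libraries, in the order of their replicate numbers, against 3, 5 and 7 in the CD93neg ones. 7 of them passed the mean of 10 normalized counts, and Adgre1 did not. limma called 0 of the 7 at an adjusted p under 0.05, as it called 0 of the 11805 tested genes, or 0%. At an unadjusted p under 0.05 2 of the 7 (Adgrg1 and Adgrl2) passed, and of all genes 1391 higher and 45 lower in CD93pos; edgeR called 0 genes, and DESeq2 called 705. Of the 8 with an adjusted p in the authors' deposited table, 0 passed 0.05, where 5.97% of 11813 genes did. Under other settings with more than 1 library in each group, limma calls did include members. Adgrg1 was called with a pseudocount of 0.5, where 206 of the 11805 genes were, and with the replicate block, where 24 were. Adgrg1 and Adgrl2 were called without CD93neg replicate 3, where 1880 of the 11805 genes were. Because the genes were chosen on this contrast, nothing is read from these counts. The log2 fold change was below 0 for 2 of the 7, Adgrg1 and Adgrl4, beside 20.1% of all tested genes, and the median was 2.04 beside 2.36. Without CD93neg replicate 1 the median was 0.17 for the 7 genes and 0.43 for all tested genes.

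**Figure D4:**
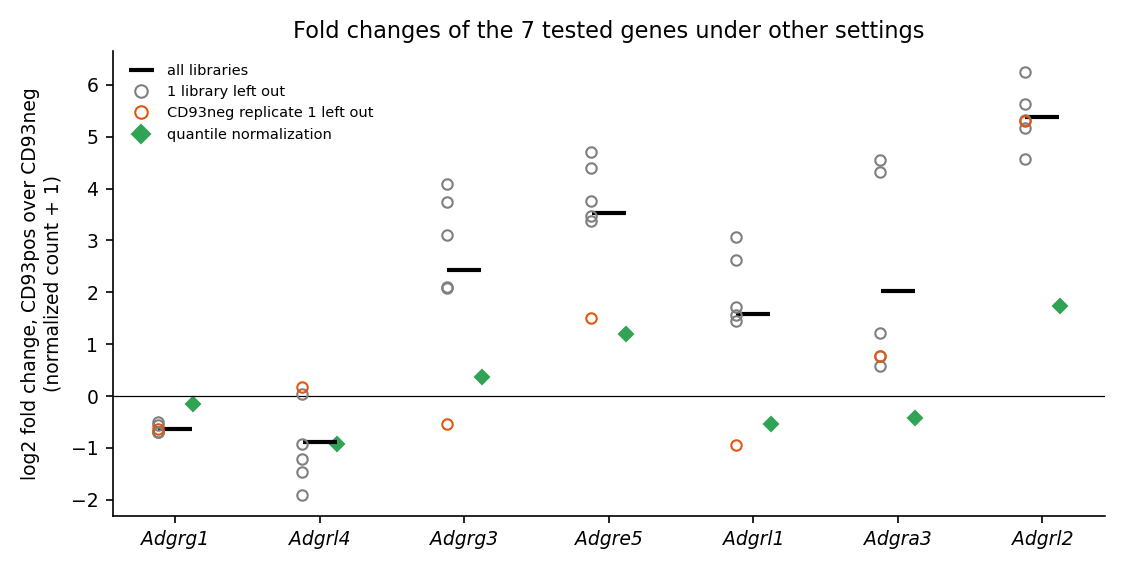
Log2 fold change of CD93pos over CD93neg (y axis, on normalized count + 1) of the 7 tested adhesion receptor genes (x axis), with all libraries (black bars), with each library left out (circles, orange for CD93neg replicate 1) and after quantile normalization (green diamonds). The circles of Adgrg1 stay between -0.69 and -0.51, while without CD93neg replicate 1 those of Adgrg3 and Adgrl1 lie at -0.53 and -0.94.

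Adgrg1 and Adgrg3 lie in tandem on the plus strand of chromosome 8 (GRCm38 throughout), Adgrg1 at chr8:94974751-95014217 and Adgrg3 at chr8:95017692-95045250, with a gap of 3.48 kb. Both are protein-coding, and no exon of another annotated gene overlaps theirs. Their levels were far apart. Adgrg3 (GPR97), a receptor known from granulocytes, had normalized counts of 508, 128 and 533 in CD93pos and 0, 373 and 599 in CD93neg. The groups overlapped, and the ratio of CPM means was 1.25, or 0.834 without CD93neg replicate 1 and 2.09 without CD93neg replicate 3. The CD93neg libraries with the high neutrophil marker sums held 84.95 and 128 CPM of Adgrg3. In CD93pos, where those sums were 90.3 to 315 CPM, Adgrg3 was at 117, 27.96 and 121 CPM. The part of such cells in the Adgrg3 values was not tested. The 0 reads of Adgrg3 in CD93neg replicate 1 allow up to 1.06 CPM (3 reads of its total).

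The sequences just upstream of RefSeq starts of this pair and of Adgrl4 are shown because the genes differ so much in level (GRCm38.p6, plus strand, 5′ to 3′, the longest stretch of each 250-base window without annotated exon bases). Both RefSeq starts of Adgrg1 lie inside the gene as GENCODE annotates it. Of the 9 genes, 7 had an entry, with 2 starts for Adgrg1. Capitals mark GGAA, the ETS core, GATA, the GATA core, and TGANTCA, the AP-1 site, on either strand. No marked motif overlapped another.
Adgrg1, first start, chr8:94976859-94976992: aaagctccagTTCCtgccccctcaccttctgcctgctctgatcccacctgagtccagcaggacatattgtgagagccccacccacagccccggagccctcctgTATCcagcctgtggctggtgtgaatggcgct
Adgrg1, second start, chr8:94984149-94984370: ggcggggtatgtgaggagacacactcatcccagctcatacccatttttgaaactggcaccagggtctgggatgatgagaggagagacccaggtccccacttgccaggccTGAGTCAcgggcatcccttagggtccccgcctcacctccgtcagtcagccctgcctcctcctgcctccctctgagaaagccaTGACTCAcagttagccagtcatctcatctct
Adgrg3, chr8:95017442-95017691: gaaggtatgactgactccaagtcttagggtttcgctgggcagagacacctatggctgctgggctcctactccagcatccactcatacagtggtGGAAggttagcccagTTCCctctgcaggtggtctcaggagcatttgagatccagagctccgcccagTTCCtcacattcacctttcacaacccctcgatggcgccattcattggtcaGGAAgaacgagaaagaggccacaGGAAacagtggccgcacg
Adgrl4, chr3:151437632-151437881: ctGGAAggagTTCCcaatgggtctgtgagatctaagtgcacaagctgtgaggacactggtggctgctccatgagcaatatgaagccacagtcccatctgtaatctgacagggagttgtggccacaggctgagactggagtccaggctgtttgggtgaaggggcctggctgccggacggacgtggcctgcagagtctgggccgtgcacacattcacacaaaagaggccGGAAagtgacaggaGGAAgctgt

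Motifs were counted in the full 250 bases upstream of each start, which for Adgrg1 include bases not shown. GGAA occurred 1 time and 0 times for the first and second start of Adgrg1, 5 times for Adgrg3 and 4 times for Adgrl4, and at least 1 copy was present in 93.4% of 32851 windows of the same length. GATA occurred 2 times at the first start of Adgrg1 and in none of the other 3 windows, against 53.6% of all windows with a copy. TGTGGT, the RUNX core, was found in none of the 4 windows (14.0% of all windows hold it). TGANTCA occurred 2 times, both at the second start of Adgrg1 (6.75% of all windows). These matches describe letters and not bound sites.

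The nearest genes near the pair were far below Adgrg1. Of the 7 neighbours listed, 4 were tested, none was called, and 2 had a fold change above and 2 below 0. Polr2c, an RNA polymerase II subunit, had normalized counts of 468, 361 and 520.0 in CD93pos and 1184, 193 and 449 in CD93neg. Coq9, of coenzyme Q synthesis, had 403, 359 and 279 in CD93pos and 0, 751 and 686 in CD93neg. Kifc3, a kinesin, was read in CD93neg replicate 3 alone (158 reads). Ccdc102a, Dok4 and Drc7 were below the minimum for testing. All of the tested neighbours had overlapping groups.

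**Figure D5:**
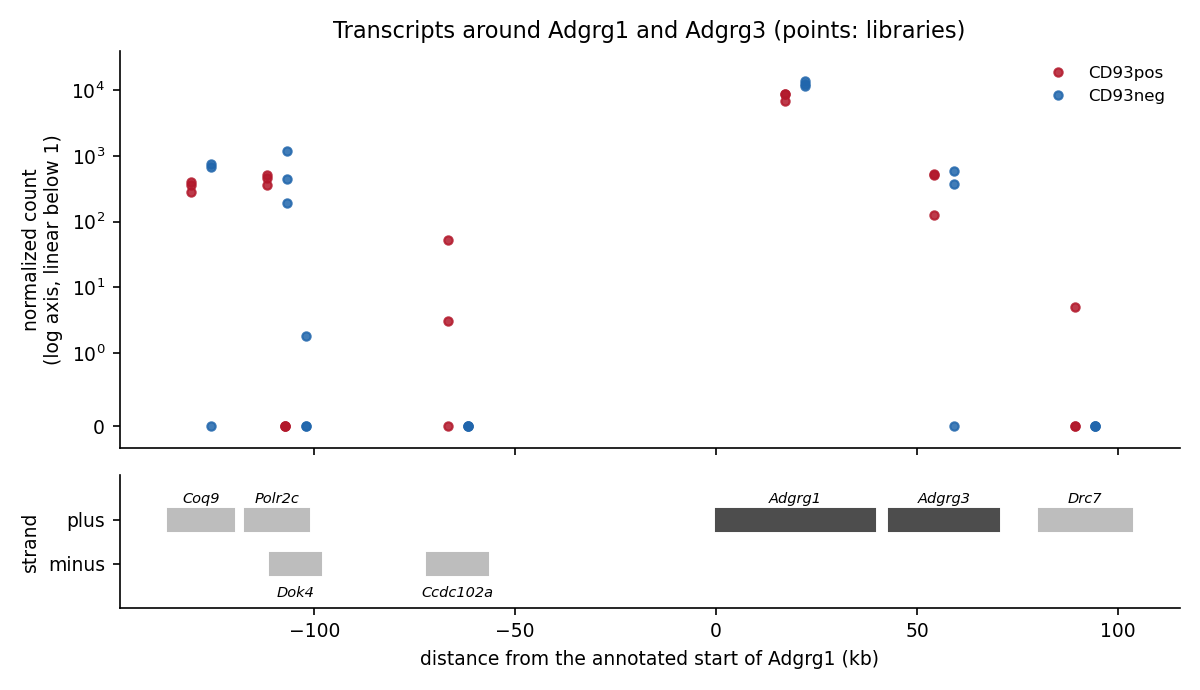
Normalized counts (upper y axis, log scale, linear below 1) of annotated protein-coding genes around Adgrg1, drawn at each gene's midpoint by distance from the annotated start of Adgrg1 (x axis, kb), 1 point per library, CD93pos left of CD93neg. Below, the genes as boxes by strand, with the adhesion receptors in dark grey; Adgrg1 stands above every gene drawn.

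Adgrl4 (ELTD1), a receptor best known from endothelial cells, was abundant but uneven between libraries. It lies on the plus strand of chromosome 3, chr3:151437887-151545086. Its normalized counts were 2188, 3087 and 387 in CD93pos and 10869, 2429 and 620.5 in CD93neg. CD93neg replicate 1 was far above the other 5 libraries, and the groups overlapped. The ratio of CPM means was 0.451 and turned to 1.23 without CD93neg replicate 1, while the log2 fold change of -0.88 (SE 1.13) turned to 0.17 without that library and to 0.03 without CD93pos replicate 3. The coefficients of variation were 72.8% in CD93pos and 118% in CD93neg. Endothelial markers summed to 301, 371 and 292 CPM in CD93pos and 783, 52.4 and 192 in CD93neg, with the highest sum in the same library as Adgrl4. In that library the whole sum was Pecam1, which HSCs also express (2217 reads). Of the 10 markers, 8 were read, and Cdh5, the cadherin that defines endothelium, and Stab2 were not. Vwf had 651, 674 and 999 reads in CD93pos, against 0, 3 and 151 in CD93neg, and Tek had 1163, 630 and 156 in CD93pos, against 0, 7 and 62 in CD93neg. Both were thus unread in the library with the most Adgrl4. The part of other cells in the Adgrl4 values was not tested.

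Adgre5 and Adgre1 belong to the leukocyte group of the family. Adgre5 (CD97), which binds CD55 and Thy1, had normalized counts of 142, 242 and 212 in CD93pos and 0, 84.7 and 54.7 in CD93neg. All CD93pos values lay above all CD93neg values, as for 18.3% of tested genes, and the ratio of CPM means was 4.32, or 2.88 without CD93neg replicate 1 and 7.64 without CD93neg replicate 2. The gene lies on the minus strand at chr8:83723251-83741326, and 895 bp of its exons, 23.8%, coincide with exons of Ddx39 on the plus strand. Ddx39, an RNA helicase gene, had 4029, 1561 and 3671 reads in CD93pos, against 0, 688 and 473 in CD93neg, also without overlap. Since the strand setting of the counting is not given in the sources used here, reads of these 2 genes cannot be told apart where they coincide, and the Adgre5 values are uncertain. Adgre1 (F4/80, chr17:57358691-57483527), the surface antigen by which mouse macrophages are recognised, had 30, 0 and 60 reads in CD93pos, while CD93neg had none. Setting CD93neg as a group to 3 reads, Adgre1 was at least 14.0-fold higher in CD93pos, but at least 6.83-fold without CD93pos replicate 3 and 7.80-fold without CD93neg replicate 2. C1qa, a complement gene of macrophages, was read in the same 2 libraries, with 31, 0 and 59 reads in CD93pos, against none in CD93neg. Other macrophage genes were also read in CD93pos replicate 2, where Adgre1 was not, among them C1qb with 52, 32 and 163 reads in CD93pos and Vcam1 with 80, 383 and 273, both unread in CD93neg. Further markers of the list went the other way and were highest in CD93neg replicate 3. Ly6c2 had 30, 80 and 12 reads in CD93pos, against 0, 125 and 634 in CD93neg. Csf1r had 8, 0 and 71 in CD93pos, against 0, 0 and 199 in CD93neg, and Fcgr1 had 80 reads in that library alone. Over the 12 macrophage and monocyte markers the sums were 54.9, 178 and 183 CPM in CD93pos and 0, 84.3 and 408 in CD93neg, with Siglec1 at 0 throughout. Eosinophils also carry F4/80, and the 6 eosinophil markers summed to 12.5, 14.8 and 17.2 CPM in CD93pos and 0, 5.20 and 72.6 in CD93neg, with Epx and Prg3 at 0 throughout. Ccr3 had 25, 0 and 58 reads in CD93pos and Siglecf 87, 86 and 65, and both were unread in CD93neg. Prg2 and Il5ra went the other way. Prg2 had 7, 0 and 0 reads in CD93pos, against 0, 0 and 218 in CD93neg, and Il5ra had 24 reads in CD93neg replicate 2 alone. The part of these cells in the Adgre1 values was not tested.

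Adgrl1 and Adgrl2 encode latrophilins, receptors for teneurins and FLRT proteins that were first studied at synapses. Adgrl2 (minus strand, chr3:148815583-148990555) had normalized counts of 171, 135 and 88.6 in CD93pos and 1.82, 0 and 9.38 in CD93neg. All CD93pos values lay above all CD93neg values, as for 18.3% of tested genes. Its reads numbered 373, 170 and 144 in CD93pos, against 1, 0 and 6 in CD93neg. The ratio of CPM means was 37.7, and it was 25.2 without CD93neg replicate 2 and 167 without CD93neg replicate 3, since it then rested on 1 read. An annotated antisense transcript shares 1.42% of its exon length. Adgrl1 (plus strand, chr8:83900105-83941954), 159 kb from Adgre5, had normalized counts of 101, 80.8 and 118 in CD93pos and 0, 262 and 139 in CD93neg. The groups overlapped only through the 0 of CD93neg replicate 1. An annotated gene on the other strand shares 12.9% of its exon length and had no reads. The ratio of CPM means was 0.757, or 0.505 without that library and 1.52 without CD93neg replicate 2. The pair of latrophilins was thus read at similar length-corrected levels in CD93pos, at 2.62 and 2.08 RPKM, and at 3.46 and 0.0552 RPKM in CD93neg for Adgrl1 and Adgrl2 in that order.

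Adgra3 (GPR125), a receptor that binds the Wnt pathway protein Dishevelled, had normalized counts of 72.2, 0 and 178 in CD93pos and 0, 0 and 189 in CD93neg (minus strand, chr5:49959956-50059006). It was read in 2 of 3 CD93pos and 1 of 3 CD93neg libraries, and the groups overlapped. The ratio of CPM means was 1.42, or 0.619 without CD93pos replicate 3, 2.12 without CD93pos replicate 2 and 0.943 without either CD93neg replicate 1 or 2.

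Among the other 21 family genes, 13 had a read and 4 were tested, with 3 fold changes above 0, 1 below, and none called by limma. Adgrg7 (GPR128) had 56, 167 and 161 reads in CD93pos and was unread in CD93neg, by the same floor at least 59.6-fold higher in CD93pos, or 33.3-fold without CD93neg replicate 2. In the authors' deposited table it was the 1 family gene with an adjusted p under 0.05 (0.00994). Genes read in every CD93pos and no CD93neg library made up 4.6% of tested genes. Adgrg2 (GPR64) had 70, 0 and 76 reads in CD93pos, against 0, 0 and 136 in CD93neg. Adgrd1 (GPR133) had 79, 0 and 215 in CD93pos and 0, 438 and 0 in CD93neg. Each of the latrophilin, Celsr and brain angiogenesis inhibitor genes outside the 9 had a mean normalized count under 10. Together the 21 genes made up 33.5, 30.03 and 67.1 CPM in CD93pos and 2.47, 98.2 and 102 in CD93neg.

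Ligands and binding partners of these receptors were read unevenly. Of 21 listed, 19 were read and 12 tested, with 6 fold changes above and 6 below 0, a median of 0.50 beside 2.36 for all tested genes, and 0 called by limma. Tgm2, which encodes the Adgrg1 ligand transglutaminase 2, had 768, 975 and 506 reads in CD93pos, against 1087, 1519 and 703 in CD93neg. By normalized count it averaged 478 ± 256 in CD93pos, against 1506 ± 440 in CD93neg (SD, n = 3 each), and the groups did not overlap. Itga5, the fibronectin receptor subunit that binds CD97, had 454 ± 28.6 in CD93pos and 1996 ± 848 in CD93neg, also without overlap. Groups of that kind and direction are 1.92% of tested genes, and the limma adjusted p was 0.455 for Tgm2 and 0.300 for Itga5. They are 9.24% of the 812 genes read in every library with a mean of at least 1000 normalized counts. Itga5 reached that mean, and Tgm2, at 992, did not. Cd81, the tetraspanin that associates with Adgrg1, had 5629 ± 1381 in CD93pos and 6696 ± 4642 in CD93neg, and Itgb1, the integrin beta chain, 1018 ± 682 in CD93pos and 974 ± 597 in CD93neg. Cd9 and Itgb3, chosen after their values were seen, had CD93pos above CD93neg without overlap, as for 18.3% of tested genes, with limma adjusted p-values of 0.509 and 0.386. Cd9, a tetraspanin, had 3236, 1742 and 2824 reads in CD93pos, against 0, 565 and 428 in CD93neg, and Itgb3, the integrin beta chain of platelets, 388, 207 and 304 in CD93pos, against 0, 124 and 0 in CD93neg. Col3a1, the collagen ligand, and Flrt3 had no read in any library, and the 4 teneurin genes had at most 45 reads in a library.

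Downstream of the receptors, 19 of 20 listed genes of G proteins, arrestins, kinases and the RhoA pathway were matched and tested. The fold change was above 0 for 13 and below 0 for 6, with a median of 1.32 beside 2.36, none was called, and all 19 had overlapping groups. Rhoa, the GTPase, averaged 1426 ± 54.1 normalized counts in CD93pos, against 1395 ± 797 in CD93neg (SD, n = 3 each). Gna13, the G protein subunit to which Adgrg1 couples, had 899, 519 and 283 reads in CD93pos, against 2631, 108 and 536 in CD93neg. Its partner Gna12 was sparse, with 87, 0 and 49 reads in CD93pos, against 0, 23 and 67 in CD93neg. Gnai3, an inhibitory G protein subunit, had 1345 ± 748 in CD93pos and 3362 ± 4340 in CD93neg, and Arrb2, an arrestin that binds active receptors, 640.1 ± 280.3 in CD93pos and 1498 ± 1125 in CD93neg. CD93neg replicate 1 held the highest values of Gna13 and Gnai3 and no read of Gna12.

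Transcription factors of stem cells were also listed, since several of them are known to bind regulatory DNA of the human gene in blood cells. All 10 were tested and read in every library, 5 had a fold change above and 5 below 0, and none was called. Their median was -0.35, beside 2.36 for all tested genes and 0.13 for the 2707 tested genes read in every library. Lyl1, a helix-loop-helix factor, averaged 1041 ± 199 normalized counts in CD93pos, against 2529 ± 436 in CD93neg (SD, n = 3 each). Hlf, a leucine zipper factor of HSCs, had 608 ± 180 in CD93pos and 2212 ± 1880 in CD93neg. Both were without overlap, as for 1.92% of tested genes. The share was 9.24% of the 812 genes read in every library with a mean of at least 1000 normalized counts, which include both. Gata2, Erg and Tal1 each had 1 read in CD93neg replicate 1, where Adgrg1 had 6829. Gata2 had 5136, 2019 and 2217 reads in CD93pos, against 1508 and 736 in the other CD93neg libraries. Lmo2, Meis1 and Fli1 were read in every library, at mean normalized counts of 3994 ± 501, 3253 ± 474 and 1510 ± 932 in CD93pos and 2974 ± 1985, 6815 ± 5333 and 4074 ± 4724 in CD93neg.

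The genes most like Adgrg1 were sought by Pearson r of log2(normalized count + 1) over the 6 libraries, among 797 named genes read in every library with a mean of at least 1000 normalized counts. The 5 nearest were Rbm38 (r = 0.99), Eif4a2 (0.95), Cirbp and Fmnl1 (both 0.94) and Ptprcap (0.90). The 6 libraries share the group difference and the same size factors for every gene, so these values are a description. Rbm38, an RNA-binding protein, had normalized counts of 1581, 1522 and 1146 in CD93pos and 2204, 2870 and 1958 in CD93neg. Eif4a2, a helicase of translation initiation, had 2425, 2823 and 2092 in CD93pos and 4197, 4079 and 3091 in CD93neg. Cirbp, the cold-inducible RNA-binding protein, had 1188, 1171 and 806 in CD93pos and 1968, 1888 and 1278 in CD93neg. All 3 had their lowest CD93pos value in replicate 3, as Adgrg1 did, and no overlap between the groups. They were picked for following Adgrg1 over these libraries, so nothing is read from this. Groups without overlap and with CD93pos lower made up 9.24% of the 812 genes read in every library with that mean. Fmnl1, a formin, and Ptprcap, which associates with CD45, differed in size, with ratios of mean normalized counts of 0.176 and 0.467 against 0.649 for Adgrg1. Of the other 8 adhesion receptor genes only Adgrl4 met the conditions, and its r with Adgrg1 was 0.52.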

How the data were processed

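Libraries of polyadenylated RNA were made with a low-input kit and read as pairs of 50 bp, per the labels' protocols. Tools named in the submitters' processing notes are featureCounts of Subread 1.5.0-p1, STAR and DESeq2 1.26, with the builds mm10 and GRCm38. The authors deposited, as a signal, each gene's counts over a library's size factor. Another deposited table holds per gene a mean signal, a log2 fold change with standard error, a score (its test statistic), a p-value and its adjusted form. Whole reads were recovered for 100% of values above 0, within 0.001 read. The members and gene lists were chosen with earlier results of these data known.

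limma 3.58.1 (trend, two-sided, Benjamini-Hochberg, threshold 0.05) was fitted on log2(normalized count + 1) for the 11805 genes with a mean of at least 10, and the scripts were tested on simulated counts. edgeR 4.0.16 and DESeq2 1.42.0 were alternatives in R 4.3.3. Positions and exon lengths come from GENCODE M21 (GRCm38), where 47224 of 47937 IDs were found by ID without version; which annotation release the authors used is not given in the sources used here, and lengths are therefore approximate. Named genes were the members, other family genes with a mean of at least 10, of each partner list those called or the 4 most abundant, and the 5 genes most like Adgrg1; further ones were chosen after their values were seen. Some genes these rules name are not reported here.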

Additional observations from a re-analysis of the deposited data

How the results depend on the processing

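Adgrg1 had a negative log2 fold change under all 17 alternatives, from -0.69 to -0.14. It shrank to -0.14 after quantile normalization, to -0.41 in edgeR and to -0.32 per 1000000 reads of genes read in every library (added after the data were seen), and lay between -0.69 and -0.51 when 1 library was left out. Members below 0 numbered 4 of 7 after quantile normalization and 1 to 3 when 1 library was left out. The members' median was -0.14 after quantile normalization, 0.17 to 4.08 when 1 library was left out, and 5.50 without CD93neg replicates 2 and 3, a setting added later. When 1 library was left out, the summed CPM ratio ranged from 0.588 to 0.739 and that of Adgrg1 from 0.654 to 0.758; on deposited counts they were 0.617 and 0.649. Genes called over all genes numbered 0 in the fit reported, 206 with a pseudocount of 0.5, 705 in DESeq2, and 0 to 1880 when 1 library was left out (774 without CD93pos replicate 2, 1 without CD93neg replicate 1, 1880 without CD93neg replicate 3). Without CD93neg replicates 2 and 3 the count was 7892, with the lone CD93neg library assumed to vary like CD93pos. The cause of these moves was not tested. With the replicate number as a block 24 genes were called, Adgrg1 among them. Adgrg1 was also among the 206 of 11805 genes called with a pseudocount of 0.5 and, with Adgrl2, among the 1880 called without CD93neg replicate 3. Without CD93neg replicates 2 and 3 the median log2 fold change of all tested genes was 5.70, beside the 5.50 of the members. Same-numbered libraries had correlations of their deviations of 0.04, 0.02 and 0.06, against -0.05 to 0.01 for the other pairs. Each library correlated best with its own number, but all values were below 0.1. The labels do not name the animal behind each library, so whether same-numbered libraries are paired cannot be settled here.

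The other members were less steady than Adgrg1: over 17 alternatives the fold change was below 0 in 1 for Adgrg3 and Adgra3, 4 for Adgrl1 and 15 for Adgrl4, and above 0 in all 17 for Adgre5 and Adgrl2. Genes under the 3-read floor of 0.315 to 1.06 CPM cannot be compared at this depth. 3 libraries a group, 1 of them sparse, limit every comparison.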
